A study of Mus musculus with 9 samples.

Results

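Among 9 arrays of E14 mouse embryonic stem cells (ESCs) and their embryoid bodies, 4 carried RNA of undifferentiated ESCs, and those 4 fell into 2 pairs by their values. Arrays 8 and 10, called ES8 and ES10 after their labels, resembled each other more than they resembled arrays 2 and 6, called ES2 and ES6. All 4 were labelled as E14 cells, untreated, grown by a common protocol, with no genotype, passage or culture detail that sets ES8 and ES10 apart, and the 5 embryoid body arrays (EB1, EB3, EB5, EB7 and EB9) came from the same line. The methods of the study give the ESC arrays as 4 biological replicates, and the labels name no culture for any array. The pairs were chosen by the log2 expression values of the 4 arrays, with Col1a1, Pmp22, Axl, Id3 and Chac1 as their markers. For that reason, the differences between them are given as a description over 2 arrays against 2, without any test or p-value. E14 is an ESC line much used for gene trapping, and embryoid bodies are aggregates in which ESCs differentiate.

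Mouse ESCs are kept in self-renewal by leukemia inhibitory factor (LIF), which acts through Stat3, and by serum or BMP, which induces the Id proteins. Cells in such cultures move between a naive state and a state nearer to the post-implantation epiblast, while Pou5f1 and Sox2 are expressed in both. Klf4 and Nr5a2 are among the genes high in the naive state, and Otx2 and Fgf5 among those high in the other. Cells also adjust transcription to their supply of amino acids: uncharged tRNA activates the kinase Gcn2, translation of Atf4 increases, and Atf4 with its partners induces amino acid transporters, synthetic enzymes and tRNA synthetases through a short promoter element.

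Values are log2 of the deposited GCRMA intensity, a background-corrected measure of probe set brightness. Each of the 18193 genes was read from its brightest probe set over the 4 ESC arrays among those paired with it alone. Of these, 11974 had a mean log2 level of 4 or more over the ESC arrays and 6219 lay under it, near the floor of the GCRMA scale, where differences cannot be read. Levels of different genes are not compared with each other, since each probe set has its own brightness. Pearson's r across probe sets was 0.9976 between ES8 and ES10 and 0.9978 between ES2 and ES6, against 0.9953 to 0.9958 across the pairs. The median absolute difference per gene was 0.124 between the means of the pairs, 0.0975 between ES10 and ES8, and 0.0880 between ES6 and ES2. A difference of 1 or more was found in 190 genes between the pairs, in 68 between ES10 and ES8, and in 60 between ES6 and ES2.

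Of the genes of level 4 or more, 85 (0.710%) were at least 2-fold higher on ES8 and ES10, with both arrays above both of the other pair, and 102 (0.852%) were at least 2-fold lower by the same rule. In 10 of the higher genes ES2 and ES6 were both under 4, and in 8 of the lower genes ES8 and ES10 were. Such genes reached a mean of 4 only through their higher pair, and their differences are poorly bounded. Without a limit on size, both ES8 and ES10 lay above the other pair in 2039 genes (17.0%) and below it in 3712 (31.0%), so that 35.5% of separated genes were higher. That share depended on scaling: it was 52.8% after quantile normalization, 22.0% after centring each array on its median and 46.2% after cyclic loess, whereas the share higher among the 2-fold genes stayed between 42.3% and 52.4%. For 76 of the 187 genes at least 2-fold apart another probe set was of level 4 or more, and 90 of these 106 probe sets differed in the same direction. Counts of separated members in the gene lists below move with the scaling too and are read against these shares. Some lists also hold markers of the pairs, whose calls follow from the choice of the pairs. Col1a1 is in the matrix and fibroblast lists and Axl in the fibroblast and YAP lists. Pmp22 is among the growth arrest genes, Id3 in the BMP list and Chac1 in the amino-acid response list. A gene is called even where its 4 ESC arrays spanned less than 0.5, which held for 78.7% of genes. Just inside the 2-fold limit lay Zfp703, with a difference of 1.004, and Rbm43, with -1.004, and just outside it Ets1 (0.992) and Erbb3 (-0.996). All 9 probe sets of the spiked hybridization controls, RNAs added to every sample, were lower on both ES8 and ES10, with differences of -0.532 to -0.0994. Their mean level was 10.89 on ES2, 11.02 on ES6, 10.67 on ES8 and 10.68 on ES10. The difference between the 3′ and 5′ probe sets of Actb, a sign of RNA integrity, was between 0.630 and 0.710 on the 4 arrays, and that of Gapdh between -0.0400 and 0.0477. The part of hybridization in the results below was not tested. Median differences on 20 chromosomes lay between -0.0539 and -0.0022, so no chromosome stood apart as a whole.

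**Figure D1:**
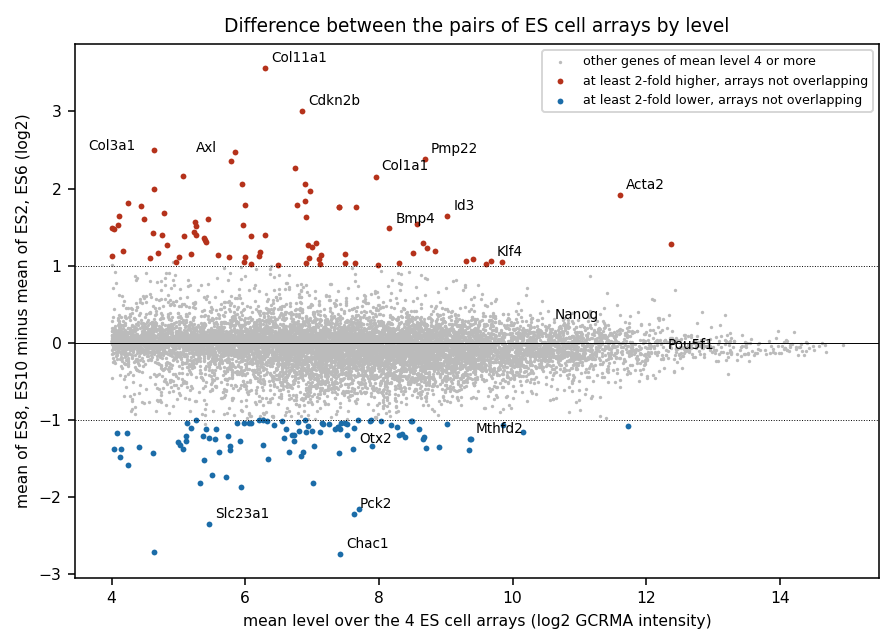
Difference between the mean of ES8 and ES10 and the mean of ES2 and ES6 (vertical axis, log2) against the mean level over the 4 ESC arrays (horizontal axis, log2 GCRMA intensity), one point for each of 11974 genes. The 85 red genes were at least 2-fold higher and the 102 blue ones at least 2-fold lower with pairs that did not overlap, dotted lines mark 2-fold, and Pou5f1 and Nanog lie near 0.

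The largest difference upward on ES8 and ES10 was that of Col11a1, a fibrillar collagen chain, which was 4.69 on ES2, 4.35 on ES6, 8.22 on ES8 and 7.94 on ES10. It was 11.8-fold higher on the second pair, and a second probe set of the gene differed by 2.65 in the same direction. Cdkn2b, the cyclin-dependent kinase inhibitor p15, read 5.72, 4.98, 8.48 and 8.23 on ES2, ES6, ES8 and ES10, a difference of 3.01. Pmp22, a membrane protein first found in growth-arrested cells, read 7.57, 7.42, 10.06 and 9.69 in that order of arrays, which is 5.21-fold higher. For Axl, a receptor tyrosine kinase of mesenchymal cells, the levels were 4.49, 4.73, 7.15 and 7.02, a difference of 2.47. In each of these 4 genes ES8 and ES10 were far above both ES2 and ES6, and the arrays within a pair lay close together, with ES2 and ES6 of Cdkn2b farthest apart.

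Of the other genes among the 12 highest, Nrp1, a co-receptor for semaphorins and VEGF, was higher by 2.36, the membrane protein gene Emp1 by 2.27, Igfbp7, a secreted binding protein, by 2.17, and Nefh, the heavy neurofilament chain, by 2.06. Ccn4, a matricellular Wnt-induced protein, was higher by 2.06, with a second probe set at 3.36, and Ankrd44 by 2.0. Ankrd44 lay near the floor on ES2 and ES6, at 3.63 and 3.64. For Nrp1 and Ankrd44 another probe set of level 4 or more differed by -0.01 and -0.16, so those differences rest on one probe set, as does that of Igfbp7, whose other detected probe set differed by 0.01.

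**Figure D2:**
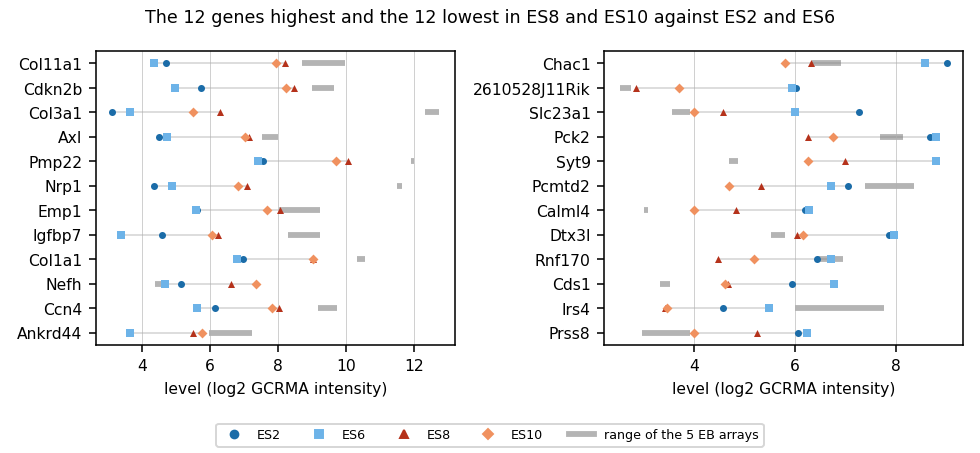
Level (horizontal axes, log2 GCRMA intensity) of the 12 genes highest (left) and the 12 lowest (right) on ES8 and ES10, with one marker per ESC array and a grey bar for the range of the 5 embryoid body arrays. Within every gene the blue and red markers do not overlap, from Col11a1 at 4.35 to 4.69 against 7.94 to 8.22 down to Chac1 at 8.58 to 9.01 against 5.79 to 6.32.

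Extracellular matrix genes were higher on ES8 and ES10 as a list. Of 41 matched genes, 38 were of level 4 or more, of which 8 were at least 2-fold higher and none lower, against 0.710% and 0.852% over all genes. Both arrays lay above the other pair in 23 (17.0% over all genes) and below it in 3 (31.0% over all genes), and the median difference was 0.47, where that over all genes was -0.02. Col1a1, the main chain of type I collagen, was 6.98 on ES2, 6.78 on ES6, 9.03 on ES8 and 9.02 on ES10. This was 4.42-fold higher, and its other probe set differed by 2.55. Col3a1, which is laid down with type I collagen, read 3.12, 3.65, 6.28 and 5.51, so ES2 and ES6 lay near the floor and the difference of 2.51 is poorly bounded; its other probe set lay near the floor on all 4 arrays. The remaining 6 were Timp2 (1.24), an inhibitor of metalloproteases, Loxl1 (1.16), which cross-links elastin, Tgfbi (1.14), Thbs1 (1.06), Serpinh1 (1.05), the collagen chaperone, and Bgn (1.02), a small proteoglycan. Other detected probe sets differed by -0.02, 0.27 and 1.05 for Timp2 and by 0.14 and 0.59 for Bgn. They differed by 0.67 for Tgfbi, 0.81 for Thbs1 and 1.01 for Serpinh1.

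The basement membrane genes differed by less. Nid1 was higher by 0.93, Lama1 and Col4a2 by 0.74 and Col4a1 by 0.72, all with separated pairs, while Fn1 (0.28) and Sparc (0.38) were even by the range of their arrays. Type VI collagen genes Col6a1 and Col6a3 differed by 0.01, and Lamc1 by 0.01. Col1a2, whose product pairs with that of Col1a1, read 6.85 on ES2, 6.66 on ES6, 6.92 on ES8 and 7.06 on ES10, a difference of 0.24. The chains of type I collagen thus differed unequally between the pairs. Counted without ES8, 3 matrix genes were at least 2-fold higher in place of 8, and 2 were where all probe sets of a gene were averaged.

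Markers of fibroblasts, which also mark the feeder cells that some ESC cultures contain, overlapped with this list. Of 22 markers, 17 were of level 4 or more. Of these, 6 were at least 2-fold higher (Col1a1, Col3a1, Axl, Acta2, Prrx1 and Vim), against 0.710% of all genes, and none was lower. Col1a1 and Axl are markers of the pairs, so their calls follow from the choice of the pairs. Col3a1 reached a mean of 4 only through ES8 and ES10. Separated pairs were found in 10, all of them higher, against 17.0% higher and 31.0% lower over all genes, and the median difference was 0.57. The 6 became 3 with the mean over probe sets and 3 at a mean level of 6 or more. Acta2, smooth muscle actin, was 10.81 on ES2, 10.49 on ES6, 12.64 on ES8 and 12.49 on ES10, and the intermediate filament gene Vim read 11.73, 11.74, 13.14 and 12.89. Both were clearly high on the second pair, although a dimmer probe set of Acta2 differed by 0.16. The homeobox gene Prrx1 read 4.74, 4.37, 5.99 and 5.92. Summed on the linear scale over the list, the markers came to 9788 on ES2 and 9451 on ES6, against 22775 on ES8 and 19890 on ES10, and to between 48540 and 57332 on the embryoid body arrays. Such a sum weights each gene by the brightness of its probe set. Acta2 and Vim, at the levels above, make up a large part of it on the ESC arrays, so it does not speak for the markers as a group. Thy1, S100a4, Fap, Meox1 and Postn lay near the floor on all 4 ESC arrays: Postn was at most 3.0 there and at least 10.38 on the embryoid body arrays, while the other 4 were near the floor in embryoid bodies too. Pdgfra (-0.02), Pdgfrb (-0.27), Twist1 (0.00) and Snai2 (-0.10) were not separated. In RNA of whole cultures, more cells of a type and more RNA per cell cannot be told apart, and the part of such cells in the matrix result was not tested.

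Genes that answer to serum response factor or YAP were mixed. Of 26 genes of level 4 or more, 5 were at least 2-fold higher (0.710% of all genes), and 14 were separated upward and 4 downward (17.0% and 31.0% of all genes). With the mean over probe sets 2 were at least 2-fold higher, and without ES8 13 were separated upward and 11 downward. The 5 were Axl, Acta2, Tgfb2 (1.63), Thbs1 and Ankrd1 (1.12, near the floor on ES2 and ES6). Ccn1 and Ccn2, the most used YAP targets, differed by -0.07 and -0.24, and Vcl and Myl9 by -0.05 and 0.00.

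**Figure D3:**
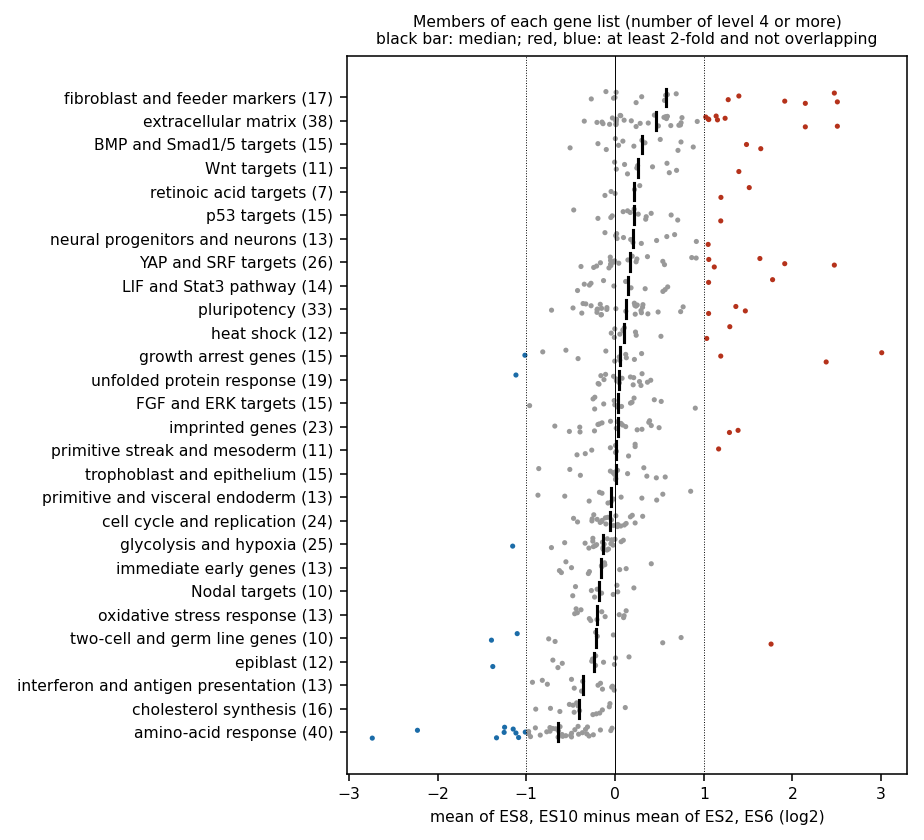
Difference between the pairs (horizontal axis, log2) for every member of level 4 or more of 28 gene lists, sorted by the list median (black bar), with the number of members in parentheses. The fibroblast and matrix lists have the highest medians (0.57 and 0.47), the amino-acid response list the lowest (-0.64), and the medians of most lists lie between -0.2 and 0.3.

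Lower on ES8 and ES10 were first of all the genes of the amino-acid response. Of the 40 detected genes of this list, 38 had both arrays below both of ES2 and ES6 and none had them above, against 31.0% and 17.0% over all genes. Of the 40, 9 were at least 2-fold lower, against 0.852% over all genes, and the median difference was -0.64. That median lay between -0.67 and -0.58 under every alternative tried. Chac1, which degrades glutathione and is a sensitive Atf4 target, was 9.01 on ES2, 8.58 on ES6, 6.32 on ES8 and 5.79 on ES10. It had the largest decrease of any gene of level 4 or more, 6.66-fold, and the arrays within each pair differed by 0.43 and 0.52. Pck2, the mitochondrial phosphoenolpyruvate carboxykinase, read 8.67, 8.80, 6.27 and 6.75, and was 4.68-fold lower. Its only other probe set lay near the floor.

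The transcription factors of the response were lower as well. Atf4 itself was 11.78 on ES2, 11.77 on ES6, 10.98 on ES8 and 10.67 on ES10, a difference of -0.95. Cebpb differed by -0.97, Cebpg by -0.73, Ddit3 (Chop), an Atf4-induced partner, by -0.64, Atf5 by -0.59 and Atf3 by -0.49, and all had separated pairs. Trib3, a pseudokinase that restrains Atf4, read 7.88, 7.50, 6.35 and 6.37, which is 2.52-fold lower, with -2.12 on its other probe set.

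Enzymes of amino acid and one-carbon synthesis made up most of the remaining 2-fold genes. Asns, asparagine synthetase, a standard Atf4 target, read 12.32 on ES2, 12.23 on ES6, 11.26 on ES8 and 11.13 on ES10. Mthfd2, of mitochondrial folate metabolism, read 9.91, 10.05, 8.75 and 8.71, and its other probe set differed by -1.21. The serine pathway genes Psph (-1.12), Psat1 (-0.97) and Phgdh (-0.49) and the proline pathway gene Aldh18a1 (-1.01) were lower too. Other detected probe sets of Aldh18a1 differed by -0.79, -0.42, -0.27 and -0.01. Vldlr, a lipoprotein receptor induced by Atf4, was 2.21-fold lower, with -0.59 on another detected probe set. Of the transporters, Slc7a5 differed by -0.84, Slc3a2 by -0.60, Slc7a3 by -0.50 and Slc38a2 by -0.41, while the cystine carrier gene Slc7a11 was read only by a probe set near the floor.

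All 8 cytoplasmic tRNA synthetases of the list lay below the other pair. Cars, which charges cysteine, was 9.11 on ES2, 9.46 on ES6, 7.90 on ES8 and 8.18 on ES10, 2.37-fold lower, although another, dimmer probe set of it differed by 0.04. Sars differed by -0.90, Mars1 by -0.73, Gars by -0.70, Aars by -0.67, Iars by -0.62 and Eprs by -0.31. Wars, which charges tryptophan, differed by only -0.03. Yars, which was not on the list and was noticed after its values were seen, differed by -1.05. Stc2 and Jdp2 were the genes of the list whose pairs overlapped.

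The amino-acid response element, to which Atf4 dimers are known to bind, is shown for members of this list because it is the known element of this pathway. Promoter windows of 250 bases before to 50 after the start site were taken from RefSeq on GRCm38.p6 and searched on both strands for TGATGNAA, whose reverse complement is TTNCATCA, the core of the amino-acid response element. It was found in 12 of 35 genes of the list that had a window (34.3%), in 272 of 9664 genes of level 4 or more (2.81%) and in 1219 of all 27025 genes (4.51%). Of the 8 genes of the list that were at least 2-fold lower and had a window it was found in 5, and not in Mthfd2, Psph or Aldh18a1. Over all 2-fold genes it was found in 9 of 76 lower genes (11.8%) and in 1 of 68 higher genes (1.47%). The 5 genes of the list are among these 9, and the list was made of known genes of this response. These shares are thus no independent support for the element. A match is a description of the letters and not a bound site. The 250 bases upstream of the start of Chac1 (chr2:119350992-119351241, plus strand) and of Pck2 (chr14:55540016-55540265, plus strand) follow, with the match in capitals.
Chac1: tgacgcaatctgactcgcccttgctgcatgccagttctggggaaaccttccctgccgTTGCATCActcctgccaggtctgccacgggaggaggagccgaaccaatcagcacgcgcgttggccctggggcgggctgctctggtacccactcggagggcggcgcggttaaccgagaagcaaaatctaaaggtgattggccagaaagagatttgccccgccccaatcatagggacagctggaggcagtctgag
Pck2: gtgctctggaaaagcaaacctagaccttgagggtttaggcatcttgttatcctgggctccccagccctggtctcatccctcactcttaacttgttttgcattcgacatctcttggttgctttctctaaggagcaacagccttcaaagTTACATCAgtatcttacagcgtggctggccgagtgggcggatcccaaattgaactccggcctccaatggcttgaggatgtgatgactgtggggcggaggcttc

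The match began 193 bases before the start of Chac1 and 103 before that of Pck2. For the other 3 genes at least 2-fold lower, and for Nupr1 and Atf3, which were lower by less, 30 bases around the match are given on the strand of the gene, again with the match in capitals. The windows are chr2:152344028-152344057 for Trib3 (minus strand, 15 bases after the start), chr19:27216809-27216838 for Vldlr (plus, 200 before), chr6:7693214-7693243 for Asns (minus, 23 before), chr7:126625562-126625591 for Nupr1 (minus, 110 before) and chr1:191183425-191183454 for Atf3 (minus, 110 before).
Trib3: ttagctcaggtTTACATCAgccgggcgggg
Vldlr: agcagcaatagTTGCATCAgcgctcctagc
Asns: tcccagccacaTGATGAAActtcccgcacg
Nupr1: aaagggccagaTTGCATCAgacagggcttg
Atf3: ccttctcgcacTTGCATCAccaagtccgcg
Chac1, Vldlr, Nupr1 and Atf3 share the same 8 letters, Pck2 and Trib3 have another form, and Asns carries the element in the opposite orientation. The letters also occurred in Gars (-0.70) and Iars (-0.62), in Jdp2, whose pairs overlapped (-0.33), and at 2 places in the window of Slc7a11, which was near the floor.

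**Figure D4:**
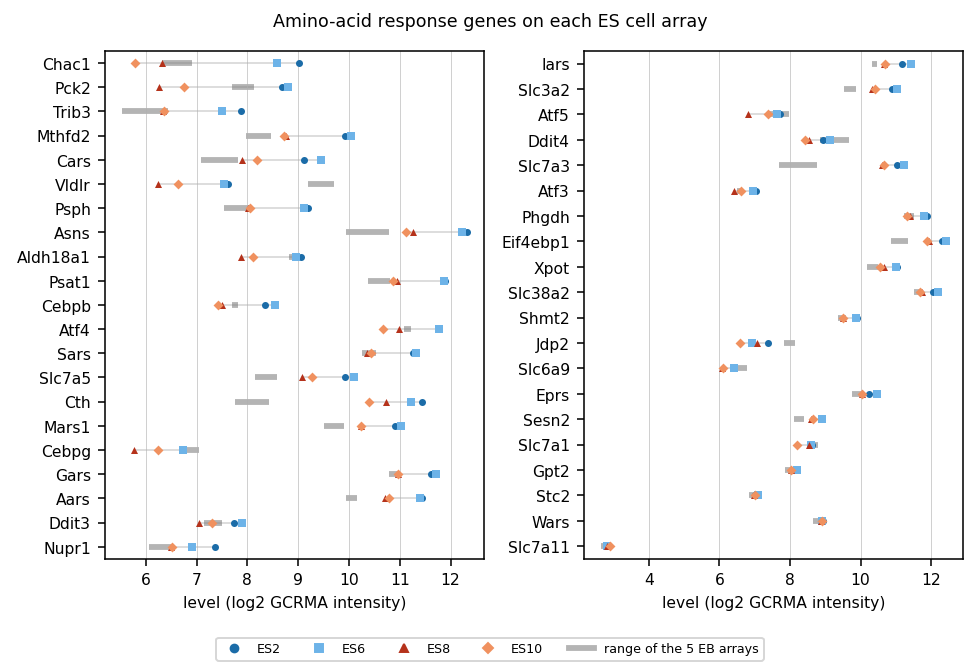
Level (horizontal axes, log2 GCRMA intensity) of the 41 matched amino-acid response genes on each ESC array, ordered by the difference between the pairs, with a grey bar for the range of the 5 embryoid body arrays. The red markers of ES8 and ES10 lie to the left of the blue ones from Chac1 down to Wars except at Jdp2 and Stc2, and Slc7a11 lies near the floor.

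In the unfolded protein response, which is set off by misfolded protein in the endoplasmic reticulum, 17 of 19 genes were even, against 78.7% over all genes. Hspa5 (0.29), Calr (0.40) and Pdia3 (0.37) were slightly higher and Xbp1 differed by 0.01. The list held 1 gene at least 2-fold lower, against 0.852% over all genes. This was Herpud1, at 8.09, 7.86, 7.06 and 6.66 on ES2, ES6, ES8 and ES10, which was lower by 1.12 on the log2 scale. Another detected probe set of Herpud1 differed by -0.48. Of 12 heat shock genes, Cryab, a small chaperone of muscle (1.29, and 1.69 on another probe set), and Hspa1b, the inducible Hsp70 (1.03), were 2-fold higher (0.710% of all genes), 6 were separated upward and none downward (17.0% and 31.0% of all genes). On plain probe sets the difference of Cryab was 0.02. Hspa8 and Hsp90aa1 differed by -0.01 and -0.04.

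Among 13 detected genes of the oxidative stress response no gene reached 2-fold, 3 were separated upward and 6 downward, not far from the 17.0% and 31.0% of all genes. Gstm1 (-0.45), Mt1 (-0.42) and Cat (-0.38) were lower, each with a difference under 0.5. Of 15 p53 targets, 8 were separated upward and 2 downward (17.0% and 31.0% of all genes). Cdkn1a, the kinase inhibitor p21, was 8.24 on both ES2 and ES6, 9.59 on ES8 and 9.28 on ES10, a 2.28-fold difference, and Mdm2 (0.71) and Plk2 (0.63) were also higher, while Bbc3 was lower (-0.47). A dimmer probe set of Cdkn1a differed by 0.23. Of the 15 growth arrest genes, 7 were separated upward and 4 downward (17.0% and 31.0% of all genes), and the median was 0.05. At least 2-fold higher were 3 (Cdkn2b, Pmp22 and Cdkn1a) and 1 was lower, against 0.710% and 0.852% over all genes. Pmp22 is a marker of the pairs. The lower one was Cdkn1b, the gene of p27 (8.70, 8.39, 7.50 and 7.55), though its dimmer probe set differed by 0.02. Cdkn2a differed by 0.30.

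Of 24 genes of replication and mitosis, 22 were even, where 78.7% of all genes were, and none reached 2-fold, against 0.710% higher and 0.852% lower over all genes. Small differences were seen in mitotic genes, with Bub1 at -0.47 and Ccnb2 at -0.42, and in Rrm2, a subunit of ribonucleotide reductase, at 0.31. Pcna differed by 0.13 and Mki67 by -0.15. Of 13 immediate early genes, 8 were separated downward and 2 upward (31.0% and 17.0% of all genes), and after quantile normalization 6 and 3. Egr1 (-0.63), Jun (-0.60) and Btg1 (-0.55) differed most.

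Among 15 detected genes of the BMP and Smad1/5 pathway, 9 were separated upward and 2 downward (17.0% and 31.0% of all genes), and the median was 0.30. At least 2-fold higher were 2, against 0.710% of all genes, and 1 of them, Id3, is a marker of the pairs. Id3, an inhibitor of basic helix-loop-helix factors and a direct Smad1/5 target, was 8.27 on ES2, 8.13 on ES6, 9.92 on ES8 and 9.78 on ES10, which is 3.12-fold higher, while the arrays within each pair differed by 0.14. Bmp4, the ligand, read 7.40, 7.43, 9.07 and 8.72, 2.79-fold higher. Id1 (0.71) and the inhibitory Smad6 (0.88) were higher with separated pairs, Id2 was even (-0.10), and Id4 was lower (-0.51).

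Of 11 detected Wnt targets, 7 were separated upward and none downward (17.0% and 31.0% of all genes). Sp5, a direct target in ESCs, read 5.91 on ES2, 5.29 on ES6, 7.34 on ES8 and 6.65 on ES10, 2.63-fold higher, and Sp8 (0.69), Lef1 (0.61) and Apcdd1 (0.59) followed. Axin2, the most general target of the pathway, differed by 0.14. Of 10 Nodal targets, 5 were separated downward and 1 upward (31.0% and 17.0% of all genes), or 4 and 2 after quantile normalization, and none reached 2-fold: the feedback inhibitors Lefty2 and Lefty1 differed by -0.48 and -0.23, and Nodal by -0.02.

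The genes induced by FGF and ERK went both ways. Dusp4 was higher by 0.91 and Etv4 by 0.52, whereas Spry1 was 8.37 on ES2, 8.47 on ES6, 7.32 on ES8 and 7.60 on ES10, a difference of -0.96. Spry2 and Etv5 differed by 0.00 and -0.01, and Dusp6 by -0.23. In the LIF and Stat3 pathway, 8 of 14 genes were separated upward and 5 downward (17.0% and 31.0% of all genes). Klf4 and Gbx2, both Stat3 targets, were at least 2-fold higher (0.710% of all genes), and Socs3, the feedback inhibitor, read 9.42, 9.50, 10.08 and 9.92. The receptor subunits Lifr (0.57) and Il6st (0.34) were higher, and Pim1 (-0.35) and Junb (-0.29) lower. Gbx2 read 3.67, 3.44, 4.93 and 5.73, so its lower pair lay near the floor. Of 7 detected retinoic acid targets, Meis2 (1.51) and Cyp26a1 (1.19), the enzyme that degrades retinoic acid, were 2-fold higher (0.710% of all genes), and ES6 and ES2 were near the floor for Cyp26a1. The other detected probe sets of Meis2 differed by 0.51 and 0.37, and 1 gene in place of 2 was counted without ES6, ES8 or ES10.

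Most of the pluripotency genes were even, the core factors among them. Of 33 detected genes, 22 spanned less than 0.5 over the 4 arrays, a smaller share than the 78.7% of all genes. At least 2-fold higher were 3 and none was lower, against 0.710% and 0.852% over all genes. Both arrays lay above the other pair in 14 and below it in 13, against 17.0% and 31.0% over all genes. The pairs were thus separated more often in this list than over all genes. The list median was 0.12, but its sign turned under 4 alternatives, between -0.0905 and 0.207, so no direction is given for the list. Pou5f1, the gene of Oct4, was 12.27 on ES2, 12.35 on ES6, 12.19 on ES8 and 12.12 on ES10, and Sox2 read 11.72, 11.98, 11.77 and 11.62. Nanog read 10.48, 10.38, 10.75 and 10.56, a difference of 0.23. Esrrb, Tfcp2l1, Tet1, Lin28a, Sall4, Tdgf1, Dppa2, Dppa4 and Dppa5a were even, with differences between -0.20 and 0.31. On the embryoid body arrays Pou5f1 lay between 8.17 and 9.71 and Nanog between 6.34 and 7.82, under every ESC array.

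The 3 genes at least 2-fold higher were factors of the naive state, but other pluripotency factors did not follow them. Esrrb (0.30), Tfcp2l1 (0.12) and Nanog (0.23) were even, and Dppa3 (-0.72) and Klf5 (-0.37) were lower. No shift of state is therefore read from these 3 genes. Klf4, a Stat3-induced reprogramming factor, was 9.24 on ES2, 9.06 on ES6, 10.32 on ES8 and 10.08 on ES10, 2.08-fold higher, and its other probe set differed by 0.98. Nr5a2, a nuclear receptor that activates Pou5f1, read 4.87, 4.55, 6.14 and 6.0. Its other detected probe sets differed by 0.19 and 0.68. Prdm14, which represses DNA methylation genes, read 3.22, 3.39, 4.45 and 5.10, with ES2 and ES6 near the floor. Without ES8, 1 pluripotency gene in place of 3 was at least 2-fold higher. Below 2-fold, Tet2 (0.77), Nr0b1 (0.74), Zfp42 (0.49, Rex1) and Klf2 (0.37) were higher with separated pairs. Dppa3, a maternal factor that marks a naive fraction of ESCs, was lower instead (8.50, 8.46, 7.75 and 7.78), as was Utf1 (-0.47). Klf5 differed by -0.37, Epcam by -0.36, Cdh1 by -0.33 and Tbx3 by -0.20, and Tbx3 did not keep its sign under every alternative. Rex2 spanned 2.51 over the 4 arrays without following the pairs, at 4.58 on ES2, 7.09 on ES6, 5.75 on ES8 and 6.55 on ES10.

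**Figure D5:**
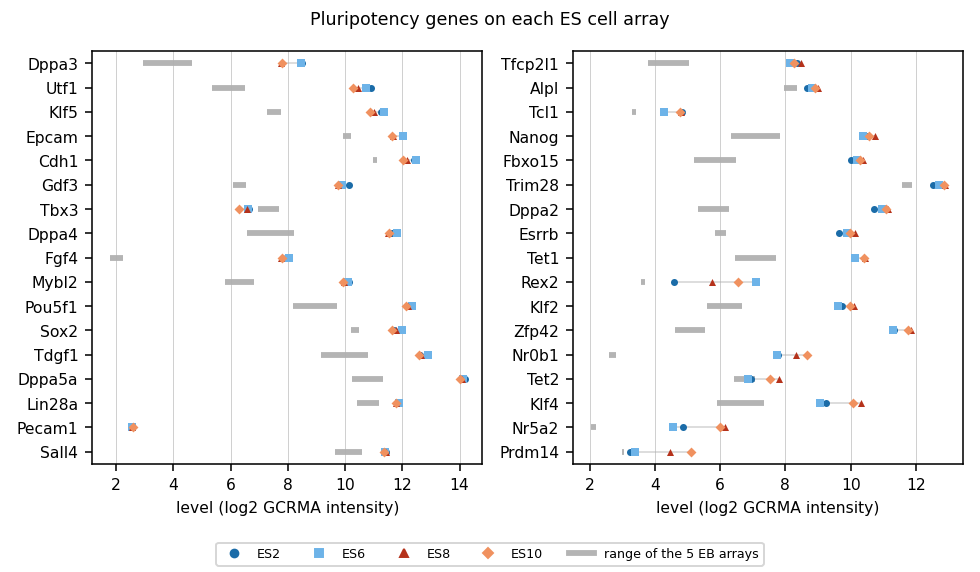
Level (horizontal axes, log2 GCRMA intensity) of the 34 matched pluripotency genes on each ESC array, ordered by the difference between the pairs from Dppa3 (-0.72) to Prdm14 (1.47), with a grey bar for the range of the 5 embryoid body arrays. The 4 markers nearly coincide for Pou5f1, Sox2 and Sall4, and the red markers lie to the right for Klf4, Nr5a2 and Prdm14.

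Of 12 detected genes of the epiblast, 9 were separated downward and none upward (31.0% and 17.0% of all genes), with a median of -0.24. After quantile normalization 6 were separated downward and 2 upward, and after cyclic loess 7 and 1. Otx2, which drives exit from the naive state, was 8.24 on ES2, 8.37 on ES6, 6.85 on ES8 and 7.01 on ES10, 2.60-fold lower. Cldn6 (-0.70), Fgf5 (-0.64) and Pou3f1 (-0.59, Oct6) differed by less, and Dnmt3b by -0.22 (12.12, 12.07, 11.92 and 11.84).

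Few lineage genes reached 2-fold, and few genes of any kind did (0.710% higher and 0.852% lower). Of 13 detected endoderm genes none reached 2-fold, 4 were separated upward and 2 downward (17.0% and 31.0% of all genes). Gata4 (-0.08) and Gata6 (-0.04) were not separated, Apoe was lower (11.42, 11.45, 10.59 and 10.55), and Plat (0.85) and Fst (0.54) were higher. Of 11 genes of primitive streak and mesoderm, Kdr, the VEGF receptor, was the one 2-fold gene (3.80, 4.41, 5.33 and 5.21). In that list 8 were even, against 78.7% of all genes, and 2 were separated upward and 2 downward. Eomes and Fgf8 differed by -0.43 and -0.26. Of 13 neural genes, 6 were separated upward and none downward (17.0% and 31.0% of all genes), and with the mean over probe sets 3 and 1 of 8. Pax6 read 5.39 on ES2, 5.51 on ES6, 5.98 on ES8 and 7.02 on ES10, so that ES10 made most of its difference of 1.05, which was under 1 without ES10 or ES2 and with a pseudocount of 16, and Ncam1 (0.67) and Sox11 (0.47) were higher, while the pairs overlapped for Zic1 (0.92). The trophoblast and epithelium list held no 2-fold gene, with Krt8 at 0.57 and the tight junction genes Cldn7 at -0.86 and Cldn4 at -0.51. Krt7 was higher by 0.47 and Cdx2 differed by 0.01, and 5 of 15 genes were separated upward and 4 downward (17.0% and 31.0% of all genes). The medians of the endoderm, streak, neural and trophoblast lists changed sign under at least 1 alternative each.

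The other genes among the 12 lowest included Slc23a1, the vitamin C transporter (7.27, 6.0, 4.57 and 4.0), Syt9 (8.77, 8.79, 6.99 and 6.25), the uncharacterized 2610528J11Rik (6.03, 5.94, 2.85 and 3.69) and the ubiquitin ligase gene Dtx3l (7.87, 7.97, 6.04 and 6.15). For Slc23a1, Dtx3l and Rnf170 another detected probe set differed by 0.09, -0.03 and -0.01. Pcmtd2 (-1.87), Calml4 (-1.82), Rnf170 (-1.75), Cds1 (-1.72), Irs4 (-1.59) and the protease gene Prss8 (-1.52) completed the 12 lowest with Chac1 and Pck2. Irs4 (3.43 and 3.46) and 2610528J11Rik lay near the floor on both ES8 and ES10.

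Meiotic and germ line genes, which ESCs express at a low level, went both ways. Sycp3, of the synaptonemal complex, was 10.01 on ES2, 10.07 on ES6, 8.74 on ES8 and 8.56 on ES10, 2.62-fold lower, and Dmrt1 (-1.10) and Mael (-0.75) were lower. Usp17la, of a two-cell-stage gene family with near-identical copies that a probe set may not separate, read 6.47, 6.57, 8.14 and 8.42, and Tex19.1 was higher by 0.74. Of 23 detected imprinted genes, 8 were separated upward and 8 downward, where 17.0% and 31.0% of all genes were. Igf2, a paternally expressed growth factor, was 8.0, 8.02, 9.39 and 9.22, 2.45-fold higher, with 0.55 on a dimmer probe set. The maternally expressed antagonist of Igf2, Igf2r, was lower (-0.68). At the Dlk1 and Meg3 locus, Dlk1 was higher (4.85, 3.92, 6.12 and 5.42) while Meg3 (-0.39) and Rian (-0.51), which are transcribed from the other parental allele, were lower.

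Metabolic and interferon genes were mostly lower by small amounts. Of 16 detected genes of cholesterol synthesis, 12 were separated downward and 1 upward (31.0% and 17.0% of all genes), with a median of -0.41. Cyp51 read 8.56 on ES2, 8.85 on ES6, 7.78 on ES8 and 7.84 on ES10, Dhcr7 differed by -0.73, Fdps by -0.62 and the regulator Srebf2 by -0.47, and none reached 2-fold. Of 25 genes of glycolysis and hypoxia, 14 were separated downward and 1 upward, against 31.0% and 17.0% of all genes (12 and 3 after quantile normalization). Of the 25, 21 were even, where 78.7% of all genes were. Aldoc (7.82, 7.58, 6.74 and 6.34) was the one 2-fold gene (0.852% of all genes were lower), with Pfkp at -0.72, Bnip3 at -0.57 and Ldha at -0.05. Of 13 detected interferon and antigen presentation genes, 8 were separated downward and none upward (31.0% and 17.0% of all genes): the immunoproteasome gene Psmb8 differed by -0.93, Bst2 by -0.82 and H2-K1 by -0.76, while B2m was even (-0.19).

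The embryoid body arrays, which did not enter the choice of the pairs, were read for the same genes. All 5 lay above all 4 ESC arrays in 61 of the 85 genes higher on ES8 and ES10 and below them in 10, where over all genes the shares were 21.7% and 24.9%. For the 102 lower genes the counts were 23 above and 41 below. These comparisons share the ESC arrays, so the counts are not independent of the pairs. Col1a1 lay between 10.31 and 10.57 in embryoid bodies, Pmp22 at 11.92 or more and Id3 between 10.91 and 11.17, beyond ES8 and ES10 in each case. Chac1 lay between 6.33 and 6.91, under ES2 and ES6 and above both ES8 and ES10, and Asns between 9.94 and 10.78, under all ESC arrays. Klf4 went the other way, at 5.91 to 7.34.

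The labels number the arrays across both kinds of sample, and ES8 and ES10 share the higher numbers with EB7 and EB9. What the numbers stand for is not given. The division of the embryoid body arrays into EB7 and EB9 against the others was also proposed from the data. The counts for it are therefore a description and no independent support. EB7 and EB9 both lay above EB1, EB3 and EB5 in 53 of the 85 higher genes (62.4%) and below them in 7, against 21.1% and 13.9% of all genes. In the 102 lower genes EB7 and EB9 both lay below in 35 (34.3%) and above in 8. The differences were small, with a median of 0.28 over the higher genes and -0.12 over the lower ones, and reached 1 or more in 5 higher and 6 lower genes. For Col11a1 the mean of EB7 and EB9 was 9.95 and that of the other embryoid body arrays 8.84, and for Emp1 they were 9.18 and 8.05. For Col1a1 the order was the opposite, at 10.37 and 10.53. In the amino-acid response list 23 genes were lower on EB7 and EB9 and 1 was higher: Trib3 had means of 5.61 and 6.35, Asns of 10.05 and 10.76, and Chac1 of 6.37 and 6.85.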

How the data were processed

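RNA of E14 ESCs (4 samples) and embryoid bodies (5 samples) had been hybridized to Affymetrix mouse arrays. The authors deposited GCRMA intensities on a linear scale, 2.14 to 37448, for 45101 probe sets. GCRMA corrects background by probe sequence, which compresses low values into a floor, and normalizes arrays to each other. Whether all 9 arrays were processed together is not given in the sources used here. Sequencing depth does not apply to arrays, and 2 arrays in each pair limit the precision. Every column of values belonged to a sample.

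Here log2 was taken without further normalization. After removal of 64 controls, 45037 probe sets remained, of which 34945 had 1 gene in the array's annotation, 932 several and 9160 none, and symbols were updated through RefSeq gene identifiers. A gene was read from its probe set with the highest mean over the ESC arrays. A 2-fold gene had pair means at least 1 apart on the log2 scale, pairs that did not overlap and a mean of 4 or more. An even gene spanned less than 0.5. The rules were run on simulated data with differences well beyond the 2-fold limit and small noise. That run checks the code and says nothing of the calls on these arrays.

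The 28 gene lists held 585 entries, of which 550 were matched, covering 524 different genes. Named genes were the 5 markers of the pairs (Col1a1, Pmp22, Axl, Id3 and Chac1), the 12 highest and 12 lowest 2-fold genes, up to 4 members per list with the largest separated difference, and the pluripotency list. Other list members and unlisted genes named as examples were picked with their values in view. The pairs, the division of the embryoid body arrays, the markers and the lists were chosen with earlier results of these data known, so they support nothing independently. Python 3.11.15 with pandas 2.3.3 was used, and R 4.3.3 with limma 3.58.1 gave the quantile and cyclic loess alternatives. Others were median centring, plain _at probe sets, the mean over probe sets, no filter, a mean of 6 or more, a pseudocount of 16, 1.5-fold, and each ESC array left out. One promoter sequence is not reported here.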

Additional observations from a re-analysis of the deposited data

Results flagged for a closer look

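The 153 named genes were searched where their mean level was 4 or more and their range 0.5 or more. In 2 of them, 1 of the 4 ESC arrays stood apart by the ratio of its gap to the whole range. The limit used is one that chance alone passes in about 1 in 20 groups. That rate is no guide here, since many genes were searched and most were named for pairs that did not overlap. Tcl1, a coactivator of Akt, was lowest on ES6 at 4.28, with 4.82 on ES2, 4.78 on ES8 and 4.77 on ES10, a ratio of 0.898. Bcl3, an IkB family member induced by Stat3, was lowest on ES6 at 6.0, with 7.07 on ES2, 7.08 on ES8 and 7.18 on ES10, a ratio of 0.907, so its difference of 0.59 between the pairs rests on ES6.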

How the results depend on the processing

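The counts of 85 higher and 102 lower genes were 89 and 81 after quantile normalization, 80 and 109 after median centring, 85 and 95 after cyclic loess, 71 and 88 on plain probe sets and 90 and 106 without a filter. They moved to 40 and 50 with the mean over probe sets, 46 and 67 at a mean of 6 or more, 48 and 51 with a pseudocount of 16, and 210 and 486 at 1.5-fold. Leaving out 1 array gave 68 to 104 higher and 95 to 158 lower genes, with 158 lower without ES8. The 54 named 2-fold genes kept their sign in all 646 values under the alternatives. With 1 array left out, another filter or a pseudocount this was fixed in advance, since their pairs did not overlap by rule. On plain probe sets alone Col3a1 differed by 0.01, Pck2 by -0.27, Acta2 by 0.16, Cryab by 0.02, Dlk1 by 0.00, Aldoc by -0.17, Meis2 by 0.28 and Pcmtd2 by -0.96, where the plain probe set was the dimmer one. Of the 28 list medians, 18 kept their sign under the 12 alternatives run on them. The pluripotency median was -0.0905 at a mean of 6 or more and, with 1 array left out, from -0.0092 to 0.0284, below 0 without ES6, ES8 (-0.0049) or ES10 (-0.0074). The neural median was -0.0041 with the mean over probe sets, and the two-cell and germ line median 0.0073 without a filter. The cause was not tested. No paired analysis was possible because ESC and embryoid body labels share no number and the pairs give no test. Signal near the floor limits what can be read of weak genes.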
